A study of Trametes coccinea with 9 samples.

Results

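The transcriptomes of 3 cultures of *Pycnoporus coccineus* grown on aspen wood were compared with those of 3 cultures grown on maltose. The 6 libraries were taken by their labels from the 9 libraries of the series, and the 12690 genes of the count tables were considered, of which 11130 passed the filter on low counts. The other 3 libraries, from cultures on pine, were used to share the estimate of the spread and to find transcripts that changed on aspen and not on pine.

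All cultures were of the monokaryotic strain CIRM-BRFM 310, grown in liquid medium and harvested after 3 days. The aspen cultures received 15 g/l of Wiley-milled wood and, by the methods, a starter of 2.5 g/l maltose. The pine cultures received the same amounts, with pine wood that had been ground with its bark and sifted. The maltose cultures received 20 g/l maltose and no wood. In each comparison with maltose, the presence of wood cannot be told apart from the lower maltose supply, and between aspen and pine the species cannot be told apart from the milling and the bark.

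*P. coccineus* is a white-rot basidiomycete, a fungus that breaks down the cellulose, hemicelluloses and lignin of wood outside its cells. Carbohydrate-active enzymes (CAZymes) of the glycoside hydrolase (GH), carbohydrate esterase (CE), polysaccharide lyase (PL) and auxiliary activity (AA) families cut or oxidize the polysaccharides, and class II peroxidases attack lignin with the help of oxidases that deliver hydrogen peroxide. In many fungi such genes are kept low by a sugar that is easily taken up and are switched on by fragments of the polymers. Aspen is a hardwood, in which glucuronoxylan is the main hemicellulose.

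Library sizes were 32699904 to 33947846 counts on aspen and 29889534 to 35011152 counts on maltose, so that depth hardly differed between the groups. Levels are given as CPM, read counts scaled to the library size, after TMM scaling, and log2 fold changes as aspen minus maltose with their standard error (SE). The TMM factor of maltose replicate 3 was 1.27, against 1.03 to 1.05 for the other aspen and maltose libraries. It was 0.84 to 0.90 for the pine libraries. A transcript is said to have risen or fallen when the quasi-likelihood test of edgeR gave it a Benjamini-Hochberg adjusted p under 0.05. It is called at least 4-fold changed when, in addition, its log2 fold change was 2 or more in size and its Bonferroni adjusted p was under 0.05. Aspen replicate 1 correlated less with aspen replicates 2 and 3 (Pearson's r of log2 CPM across genes 0.984 each) than these with each other (0.994), and maltose replicate 3 less with maltose replicates 1 and 2 (0.986 each) than these with each other (0.997). Reads were trimmed to a longer length in aspen replicates 1 and 3 than in aspen replicate 2 and in the maltose libraries. Maltose replicate 3 and aspen replicates 1 and 2 also carried another library code prefix than the remaining libraries, and no pine library had it.

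Growth on aspen changed the level of 5697 transcripts, 51.2% of those tested. Of these, 2925 rose (26.3%) and 2772 fell (24.9%), and the median log2 fold change over all genes tested was -0.02. At least 4-fold higher were 665 transcripts (5.97%) and at least 4-fold lower 311 (2.79%). These shares over all genes tested are the background for the counts of every gene group below. Among the transcripts that passed the adjusted p, 75 rose and 25 fell by 64-fold or more, and 14 rose and 6 fell by 256-fold or more. With the trim length as a term in the model, 148 rather than 311 transcripts were at least 4-fold lower, against 560 rather than 665 at least 4-fold higher.

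**Figure D1:**
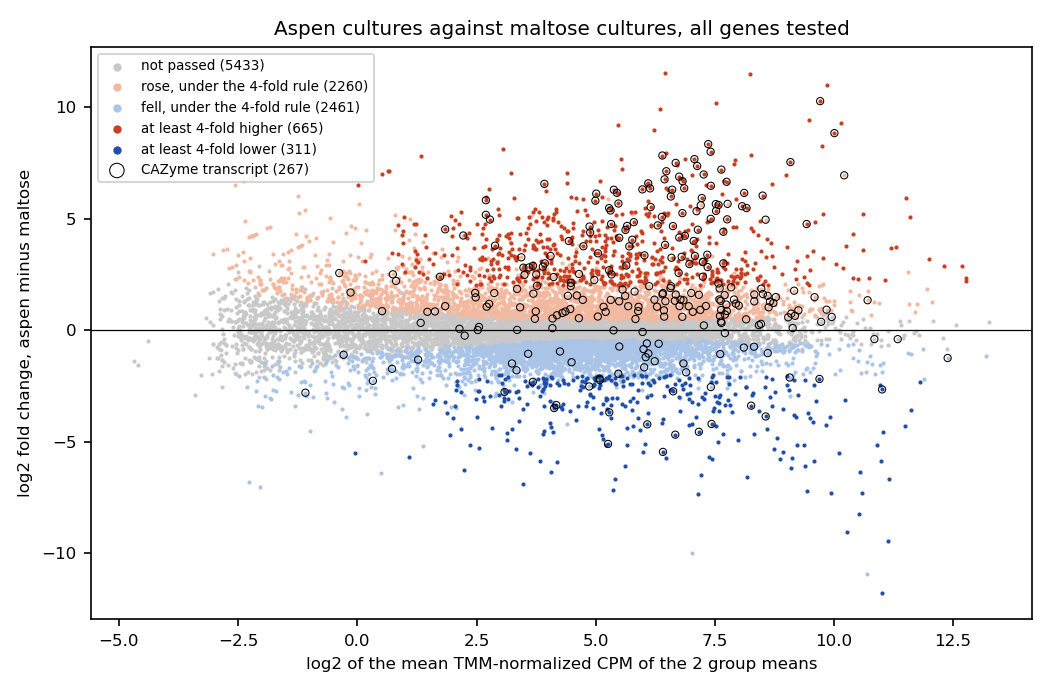
Log2 fold change, aspen minus maltose, of each of the 11130 genes tested (y axis) against the log2 of its mean level in TMM-normalized CPM (x axis); colours give the calls and open circles the 267 CAZyme transcripts tested. The 665 transcripts at least 4-fold higher outnumber the 311 at least 4-fold lower, and 88 of the circled transcripts are among the higher ones.

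Most CAZyme transcripts rose. Of the 268 transcripts in the study's CAZyme table, 267 were tested, 195 rose (73.0%, beside 26.3% of all genes tested) and 44 fell (16.5%, beside 24.9%), with a median log2 fold change of 1.55, against -0.02 over all genes tested. At least 4-fold higher were 88 (33.0%, beside 5.97% of all genes tested) and at least 4-fold lower 17 (6.37%, beside 2.79%). The table lists transcripts that the study identified in these same libraries, so its share of rises is not independent evidence. CAZyme transcripts took 6.49%, 6.18% and 7.17% of all counts in the aspen libraries, against 4.26%, 4.26% and 4.22% in the maltose libraries. The groups did not overlap, and the difference of means was 2.36 percentage points (exact permutation test, two-sided, p = 0.10, the smallest p that 3 against 3 can give). Without maltose replicate 1, 2 or 3, the CAZyme transcripts at least 4-fold higher were 58, 61 and 62 rather than 88.

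Transcripts for the cellulose-cutting enzymes rose nearly together. Cellobiohydrolases work from the ends of the cellulose chain and set cellobiose free. All 4 rose, 2 of them at least 4-fold by the rule with the Bonferroni limit, with a median log2 fold change of 6.46. The GH7 enzyme 1424818 had 2731, 1699 and 2639 CPM in the aspen cultures, against 8.09, 5.62 and 44.0 CPM in the maltose cultures. The GH6 enzyme 1357326, which carries a cellulose-binding module (CBM1), had 1043, 784 and 1415 CPM on aspen, against 2.93, 2.21 and 12.3 CPM on maltose. In both, the groups lay far apart, aspen replicate 2 was the lowest aspen library and maltose replicate 3 the highest maltose library. The log2 fold change was 6.94 (SE 1.02, adjusted p = 1.0e-04) for 1424818 and 7.53 (SE 0.95, adjusted p = 2.8e-05) for 1357326. The Bonferroni adjusted p of 1424818 was not under 0.05. Together, the 4 cellobiohydrolase transcripts took 0.434%, 0.288% and 0.493% of all counts on aspen, against 0.00164%, 0.00118% and 0.00976% on maltose.

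Of 11 endoglucanases and xyloglucanases, which cut within the chains of cellulose or xyloglucan, 9 rose, 7 of them at least 4-fold, and 1 fell. The GH45 endoglucanase 1433077 had 317, 201 and 285 CPM on aspen, against 0.889, 0.747 and 2.29 CPM on maltose, a log2 fold change of 7.66 (SE 0.50, adjusted p = 9.6e-08). The GH74 xyloglucanase 1365564 had 726, 578 and 839 CPM on aspen, against 11.0, 7.94 and 13.9 CPM on maltose (log2 fold change 6.03). The exceptions were low transcripts. GH131 1464770, from a family of broad β-glucanases, had 8.24, 4.86 and 10.2 CPM on aspen, against 21.7, 12.7 and 14.2 CPM on maltose. Its fall (log2 fold change -1.06, adjusted p = 0.031) was lost without aspen replicate 1, aspen replicate 2 or maltose replicate 1, at log2 fold changes of -1.11, -0.81 and -0.80, and also when the model held a term for trim length (-1.29) or for the prefix of the library codes (-0.94). The GH9 transcript 961999 stayed between 3.83 and 5.79 CPM in the 6 libraries (adjusted p = 0.37).

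β-Glucosidases, which split cellobiose to glucose, rose less. Among 9 GH1 and GH3 transcripts 8 rose, 4 at least 4-fold, with a median log2 fold change of 2.68. GH3 1411666 had the largest change, with 171, 123 and 162 CPM on aspen, against 4.95, 4.12 and 8.52 CPM on maltose (log2 fold change 4.69, SE 0.37, adjusted p = 5.0e-07). The exception was GH3 1434274, with 23.2, 48.0 and 52.6 CPM on aspen, against 38.9, 37.7 and 48.4 CPM on maltose, where the groups overlapped (adjusted p = 0.97).

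Oxidative cleavage of cellulose was represented by AA9 lytic polysaccharide monooxygenases (LPMOs), copper enzymes that break crystalline chains, and by cellobiose dehydrogenase, which can supply them with electrons. Of 15 AA9 transcripts 14 rose, 7 at least 4-fold, and none fell. AA9 1417214 had 146, 90.1 and 172 CPM on aspen, against 0.740, 0.304 and 3.18 CPM on maltose, a log2 fold change of 6.58 (SE 0.73, adjusted p = 8.2e-06). AA9 1440889 was the exception, at 163, 206 and 229.7 CPM on aspen, against 241, 245 and 172 CPM on maltose (adjusted p = 0.64). The cellobiose dehydrogenase 1401955 had 363, 303 and 616 CPM on aspen, against 3.23, 4.51 and 17.6 CPM on maltose (log2 fold change 5.66, SE 0.76, adjusted p = 4.7e-05). The 2 transcripts with a domain of this type rose, neither of them at least 4-fold by the rule with the Bonferroni limit. All 22 transcripts for proteins with a CBM1 rose, 18 of them at least 4-fold, with a median log2 fold change of 5.63. The module was absent from GH7 1424818, GH45 1433077 and AA9 1417214, which rose as well.

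The spread in these groups lay largely with single libraries. Maltose replicate 3 was the highest maltose library for all 4 cellobiohydrolases, all 9 β-glucosidases, 8 of 11 endoglucanases and 10 of 15 AA9 transcripts, against 43.4% of all genes tested. Aspen replicate 2 was the lowest aspen library for all 4 cellobiohydrolases, 10 of 11 endoglucanases, 5 of 9 β-glucosidases and 12 of 15 AA9 transcripts, against 29.9% of all genes tested. Without maltose replicate 3, the log2 fold change became 8.42 for GH7 1424818, 8.71 for GH6 1357326, 8.35 for GH45 1433077, 8.02 for AA9 1417214 and 6.78 for the cellobiose dehydrogenase 1401955, and all 5 still rose. What set these libraries apart was not tested.

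Xylan-active transcripts included some of the sharpest rises. GH10 endoxylanases cut the xylan backbone, and 5 of the 6 rose, each at least 4-fold, with a median log2 fold change of 6.32. GH10 1395316 had 357, 342 and 284 CPM on aspen, against 0.770, 0.775 and 1.47 CPM on maltose, with little spread in either group. Its log2 fold change was 8.34 (SE 0.32, adjusted p = 5.1e-09), a 323-fold difference. CBM1-GH10 1426850 followed with 509, 211 and 556 CPM on aspen, against 4.65, 3.29 and 4.79 CPM on maltose (log2 fold change 6.65). GH10 1362920 had 2.40, 3.13 and 6.36 CPM on aspen, against 2.19, 1.91 and 2.55 CPM on maltose, and did not pass (adjusted p = 0.058).

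Enzymes that strip side chains from xylan followed the same course. All 6 side-chain glycosidases rose, 5 at least 4-fold. GH115 1426831, from the family of α-glucuronidases, which remove the glucuronic acid of glucuronoxylan, had 265, 320.4 and 429 CPM on aspen, against 2.73, 1.99 and 6.71 CPM on maltose (log2 fold change 6.47, SE 0.57, adjusted p = 1.2e-06). GH43 1435501, from a family with arabinofuranosidases and xylosidases, had 187, 161 and 169.9 CPM on aspen, against 1.18, 1.05 and 2.53 CPM on maltose (log2 fold change 6.76). Without maltose replicate 3, the log2 fold change of GH115 1426831 became 7.16.

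Of 12 hemicellulose esterases 10 rose, all 10 at least 4-fold, and none fell. CBM1-CE1 1377160, from a family of acetyl xylan and feruloyl esterases, had 308, 420.2 and 289 CPM on aspen, against 0.948, 1.55 and 1.47 CPM on maltose. This gave a log2 fold change of 7.99 (SE 0.32, adjusted p = 5.1e-09). CE15 1470261, from the family of glucuronoyl esterases, which cut the ester between xylan and lignin, had 172, 157 and 175 CPM on aspen, against 0.355, 0.304 and 1.53 CPM on maltose (log2 fold change 7.82, and 8.98 without maltose replicate 3). The 2 transcripts that did not pass were of the acetyl esterase family CE16, with 15.9, 15.7 and 14.9 CPM on aspen, against 13.1, 11.2 and 8.47 CPM on maltose for 1377883 (adjusted p = 0.068) and with 9.39 to 10.7 CPM on aspen, against 9.06 to 11.3 CPM on maltose for 1386401 (adjusted p = 0.98).

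Mannan and pectin were covered as well. Of 9 mannan-active transcripts tested 8 rose and 1 fell, with a median log2 fold change of 2.56. The 2 GH5_7 mannanases at the ends of this range moved in opposite directions. CBM1-GH5_7 1359888 had 407, 250.4 and 465 CPM on aspen, against 4.77, 4.95 and 13.3 CPM on maltose (log2 fold change 5.60, and 6.26 without maltose replicate 3), while GH5_7 236998 had 5.66, 4.08 and 3.79 CPM on aspen, against 16.8, 17.8 and 12.7 CPM on maltose (log2 fold change -1.80, adjusted p = 4.2e-05).

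Of 14 pectin-active transcripts 13 rose, 10 at least 4-fold, with a median log2 fold change of 4.10. GH53 1363671, from the family of endogalactanases, which cut the galactan side chains of pectin, had 243, 155 and 213 CPM on aspen, against 1.24, 0.553 and 1.58 CPM on maltose (log2 fold change 7.49, SE 0.56, adjusted p = 2.7e-07). GH28 1370654, from the family of polygalacturonases, had 261, 137 and 263 CPM on aspen, against 4.74, 5.20 and 7.47 CPM on maltose (log2 fold change 5.24). The PL4 transcript 1409152, from a family of rhamnogalacturonan lyases, stayed between 3.55 and 5.63 CPM in the 6 libraries and did not pass (adjusted p = 0.91).

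**Figure D2:**
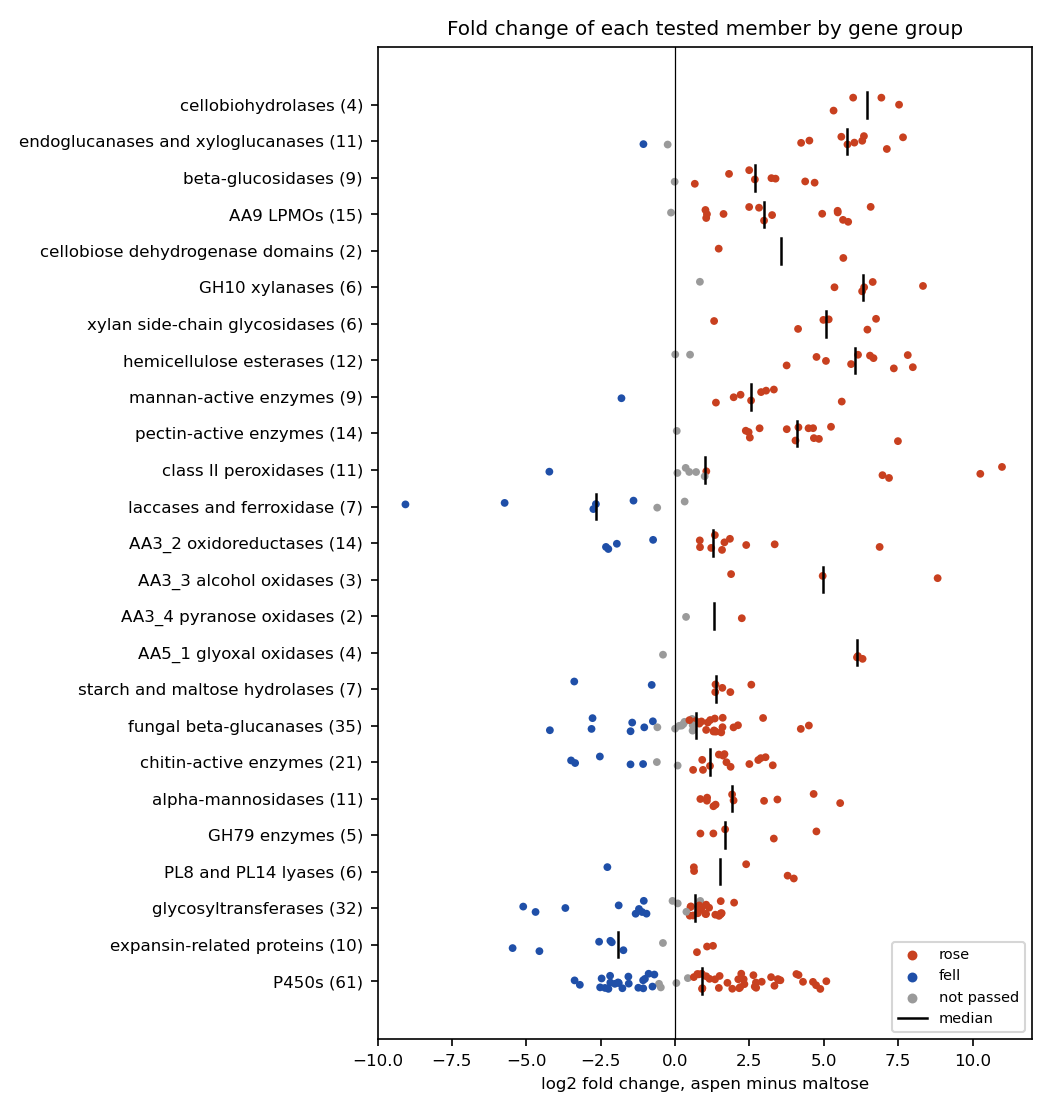
Log2 fold change, aspen minus maltose (x axis), of each tested member of 25 gene groups (rows, number tested in brackets); red points rose, blue points fell, grey points did not pass, and black bars are medians. Groups that act on plant polysaccharides lie to the right, with medians from 2.56 to 6.46, and laccases and expansin-related proteins to the left, with medians of -2.66 and -1.93.

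The peroxidases split into a few very large rises and many members at low levels. The 11 class II peroxidases, of which 5 rose and 1 fell, comprise enzymes of the lignin (LiP), manganese (MnP) and versatile (VP) peroxidase type. The LiP transcript 1431101 had 1714, 2577 and 1272 CPM on aspen, against 0.889, 0.885 and 0.947 CPM on maltose. Its log2 fold change of 10.99 (SE 0.51, adjusted p = 1.1e-08), a 2036-fold difference, was the third largest rise of all annotated transcripts. The study, from which the LiP annotation is taken, reported no LiP transcript as detected in these same libraries. What made this difference was not tested. The other 3 LiP transcripts had 0.172 to 3.21 CPM on aspen, against 0.158 to 2.79 CPM on maltose, and none passed.

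Manganese peroxidases of the short type gave the next rises. MnP 1468611 had 1436, 2321 and 1259 CPM on aspen, against 0.829, 1.49 and 1.74 CPM on maltose (log2 fold change 10.26, SE 0.68, adjusted p = 1.1e-07). MnP 1464049 had 381, 361 and 444 CPM on aspen, against 1.84, 2.02 and 4.21 CPM on maltose (log2 fold change 7.19, SE 0.39, adjusted p = 3.4e-08). MnP 1436321 had 238, 449 and 229 CPM on aspen, against 1.84, 1.69 and 3.74 CPM on maltose (log2 fold change 6.97). In each of these the groups did not overlap. In LiP 1431101 and in MnP 1468611 and 1436321, aspen replicate 2, the lowest aspen library for the cellulases, was the highest. The atypical VP 1438352 went the other way, with 7.81, 6.48 and 6.33 CPM on aspen, against 144, 153 and 88.7 CPM on maltose (log2 fold change -4.23, SE 0.30, adjusted p = 1.7e-07). Together, the 11 peroxidase transcripts took 0.392%, 0.604% and 0.333% of all counts on aspen, against 0.0160%, 0.0170% and 0.0141% on maltose.

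Laccases, copper oxidases that act on phenols without peroxide, moved opposite to the peroxidases. Of 7 transcripts in the multicopper oxidase table, which include 1 ferroxidase, none rose and 5 fell, 4 of them at least 4-fold. Laccase 1434777 had 4.09, 4.69 and 5.09 CPM on aspen, against 2629, 2870 and 1929 CPM on maltose. Its log2 fold change of -9.06 (SE 0.63, adjusted p = 1.7e-07) was the largest fall of all annotated transcripts. The study lists no reads for 1434777 on maltose, though it found the protein in the medium of maltose cultures. What made this difference in reads was not tested. Laccase 1366139 kept a sizeable level, with 394, 578 and 716 CPM on aspen, against 3967, 3900.3 and 2806 CPM on maltose (log2 fold change -2.66, SE 0.32, adjusted p = 2.0e-05). The table as a whole took 0.0470%, 0.0682% and 0.0857% of all counts on aspen, against 0.729%, 0.751% and 0.652% on maltose.

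**Figure D3:**
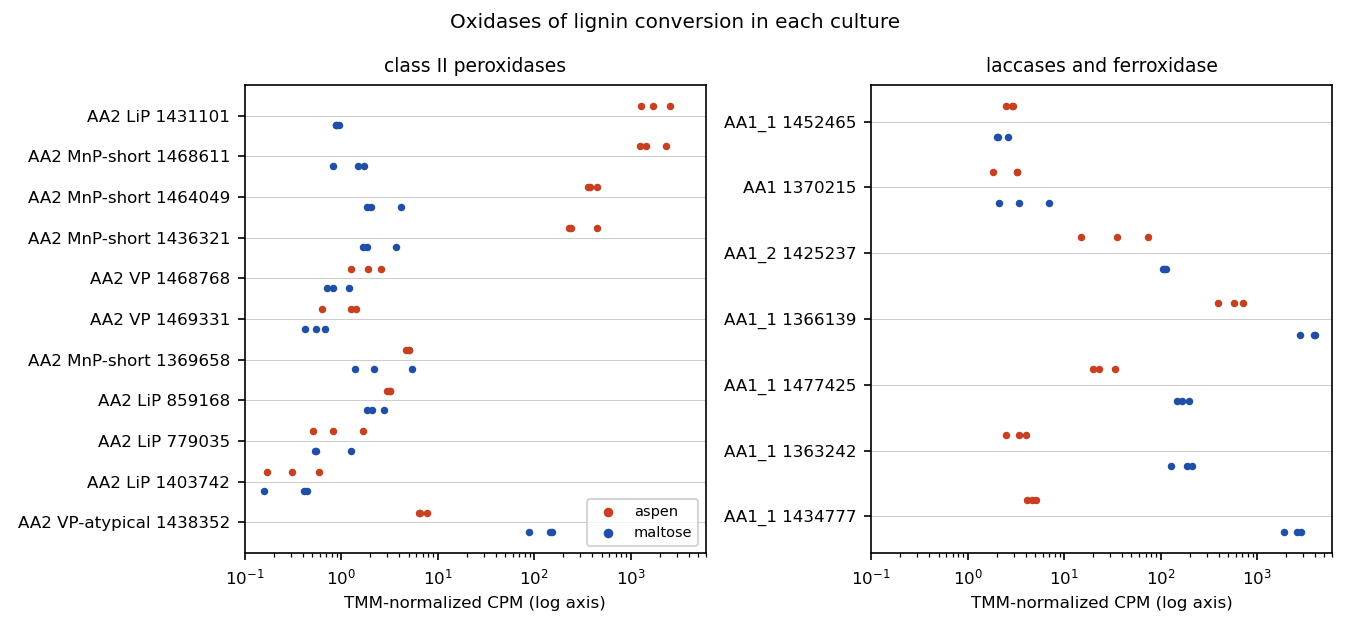
TMM-normalized CPM on a log axis for the 11 class II peroxidase transcripts (left) and the 7 laccase and ferroxidase transcripts (right) in each aspen (red) and maltose (blue) culture, ordered by log2 fold change. LiP 1431101 lies between 1272 and 2577 CPM on aspen and under 1 CPM on maltose, while laccase 1434777 lies between 4.09 and 5.09 CPM on aspen and between 1929 and 2870 CPM on maltose.

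The oxidases that can deliver hydrogen peroxide mostly rose. The AA3_3 alcohol oxidase 1368318 had 1108, 2529 and 2530.2 CPM on aspen, against 3.61, 4.12 and 5.81 CPM on maltose (log2 fold change 8.83, SE 0.50, adjusted p = 4.5e-08), and the other 2 of its family rose as well. Of 4 AA5_1 glyoxal oxidases 3 rose, all at least 4-fold, with log2 fold changes from 6.12 to 6.30. The fourth, AA5_1 1357891, had the highest mean level per kb of gene span of the 4 in both groups, 645 CPM per kb on aspen and 855 CPM per kb on maltose. It did not pass, with 1255, 1689.7 and 1811 CPM on aspen, against 2205, 2287 and 1807 CPM on maltose (adjusted p = 0.21). The 4 AA5_1 transcripts together took 0.221% to 0.269% of all counts on aspen and 0.228% to 0.237% on maltose, so that the groups overlapped. Of 2 AA3_4 pyranose oxidases 1 rose. Among 14 AA3_2 oxidoreductases, a family with aryl alcohol and glucose oxidases, 10 rose (71.4%, beside 26.3% of all genes tested). The 4 that fell (28.6%) were near the 24.9% of all genes tested. AA3_2 1429888 had 257, 210.4 and 174 CPM on aspen, against 0.800, 1.83 and 2.79 CPM on maltose (log2 fold change 6.88, SE 0.40, adjusted p = 4.7e-08), and AA3_2 1433476 fell by 2.32 on the log2 scale.

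Cytochrome P450 monooxygenases, which can convert aromatic compounds from wood, went both ways. Of the P450s, the 61 with a row in the copy of the study's table used here were taken as a list, and further P450 genes were not analysed here as such. Among the 61, 36 rose (59.0%, beside 26.3% of all genes tested) and 21 fell (34.4%, beside 24.9%). At least 4-fold higher were 20 (32.8%, beside 5.97%) and at least 4-fold lower 6 (9.84%, beside 2.79%). This table too lists transcripts that the study identified in these same libraries, so its shares of rises and falls are not independent evidence. P450 1463698 had 21.6, 33.5 and 30.3 CPM on aspen, against 0.948, 0.664 and 0.894 CPM on maltose (log2 fold change 5.09, SE 0.40, adjusted p = 4.7e-07). P450 1297918 had 329, 307 and 334 CPM on aspen, against 8.12, 9.52 and 15.2 CPM on maltose (log2 fold change 4.88). P450 1469297 had the highest mean level per kb of the 61 on aspen, 656 CPM per kb, with 1483, 1415 and 1261 CPM on aspen, against 137, 117 and 103 CPM on maltose (log2 fold change 3.54). P450 1461855 had the largest fall, with 8.72, 4.97 and 7.28 CPM on aspen, against 73.7, 80.2 and 64.1 CPM on maltose (log2 fold change -3.38).

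Starch and maltose hydrolases went both ways. Of 7 transcripts 5 rose (71.4%, beside 26.3% of all genes tested) and 2 fell (28.6%, beside 24.9%). The GH15 glucoamylase 1439526, which releases glucose from chain ends, had 56.2, 51.7 and 52.6 CPM on aspen, against 502, 563 and 616 CPM on maltose (log2 fold change -3.39, SE 0.22, adjusted p = 1.1e-07). The other GH15 transcript, 1507511, carries a starch-binding module and rose, with 60.6, 95.8 and 168 CPM on aspen, against 41.8, 39.3 and 45.4 CPM on maltose (log2 fold change 1.36, adjusted p = 0.0047). The GH31 transcript 1468129, from a family of α-glucosidases, had 190.3, 166 and 193 CPM on aspen, against 32.4, 34.99 and 25.4 CPM on maltose (log2 fold change 2.56).

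Transcripts for enzymes of the fungal cell wall changed less by their medians, though single members changed strongly. The median log2 fold change was 0.70 for β-glucanases and 1.17 for chitin-active enzymes. Of 35 β-glucanases 19 rose (54.3%, beside 26.3% of all genes tested) and 7 fell (20%, beside 24.9%). Of 21 chitin-active enzymes 14 rose (66.7%), and the 5 that fell (23.8%) were near the share of all genes tested. The exo-β-glucanase family member GH55 1377179 had 195, 262 and 356 CPM on aspen, against 8.83, 10.4 and 16.7 CPM on maltose (log2 fold change 4.50). GH79, a family with β-glucuronidases, and the PL8 and PL14 lyases were not counted with the fungal cell wall. Of 5 GH79 transcripts 5 rose, and of 6 PL8 and PL14 lyases 5 rose and 1 fell. In a model with a term for trim length, 3 of each list rose. The count of PL8 and PL14 lyases that rose was also 3 without aspen replicate 1 or 3 or without maltose replicate 1, 2 or 3. GH16 1367729 had 24.2, 12.8 and 16.2 CPM on aspen, against 301, 312 and 369 CPM on maltose (log2 fold change -4.21, SE 0.26, adjusted p = 7.8e-08). Members of the chitinase family GH18 lay at both ends of their list, with a log2 fold change of 3.29 for GH18-CBM5 1456924 and -3.50 for GH18 1467254. All 11 α-mannosidases rose, by a median log2 fold change of 1.92, and GH92 1453868 rose most, with 467, 574 and 539.7 CPM on aspen, against 8.65, 9.96 and 15.1 CPM on maltose (log2 fold change 5.55).

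Among 32 transcripts for glycosyltransferases, which build rather than cut sugar bonds, 19 rose (59.4%, beside 26.3% of all genes tested), none at least 4-fold. The 9 that fell (28.1%) were near the 24.9% of all genes tested. The 3 falls of at least 4-fold were all in family GT1, which transfers sugars to small molecules. GT1 1476435 had 2.06, 2.88 and 1.54 CPM on aspen, against 59.0, 64.7 and 99.7 CPM on maltose (log2 fold change -5.10, SE 0.38, adjusted p = 2.6e-07). GT1 289705 and 1424219 fell by 4.69 and 3.69 on the log2 scale. Expansins loosen cell walls in plants. Of 10 expansin-related transcripts 3 rose (30%, beside 26.3% of all genes tested) and 6 fell (60%, beside 24.9%). EXPN 1373750 had 4.92, 3.77 and 2.63 CPM on aspen, against 186, 183 and 129.8 CPM on maltose (log2 fold change -5.46, SE 0.33, adjusted p = 6.5e-08).

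The largest rise of the whole response, that of 448186, was of a transcript of unknown function. The study's table lists 298 with a signal peptide and 1818 without, again found in these libraries. Of those tested, 157 of 297 with a signal peptide rose (52.9%) and 65 fell (21.9%), and 953 of 1809 without rose (52.7%) and 484 fell (26.8%), where 26.3% of all genes tested rose and 24.9% fell. Transcript 448186 had 177, 157 and 191 CPM on aspen, against 0.0889, 0.0277 and 0.0526 CPM on maltose (log2 fold change 11.52, SE 0.94, adjusted p = 5.8e-07). Transcript 1468135, with a signal peptide and described in the study as a putative hydrophobin, a small coat protein of fungal hyphae, had 652, 528 and 622 CPM on aspen, against 0.326, 0.0830 and 0.210 CPM on maltose (log2 fold change 11.49, SE 0.89, adjusted p = 3.9e-07). The thaumatin-like 1437297 had 395, 298 and 407 CPM on aspen, against 0.178, 0.221 and 0.526 CPM on maltose (log2 fold change 10.18, and 10.81 without maltose replicate 3).

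Several transcripts for secreted proteins of unknown function had high levels in the aspen cultures. Levels per length of gene were not ranked over all genes tested. Transcript 1477226 had 6291, 5842 and 5955 CPM on aspen, against 193, 226 and 126 CPM on maltose (log2 fold change 5.05, SE 0.32, adjusted p = 7.8e-08), and 270010 had 5763, 5372 and 5998 CPM on aspen, against 87.6, 137 and 62.6 CPM on maltose (log2 fold change 5.90, SE 0.34, adjusted p = 4.7e-08). Per kb of gene span, their mean levels on aspen were 6836 and 5655 CPM, below the 10122 CPM per kb of 1475073, which did not pass (log2 fold change 0.24, adjusted p = 0.48). Transcript 1378713, for a protein that the study detected in the medium of maltose cultures only, had 173, 188 and 147 CPM on aspen, against 4951, 4722 and 2430 CPM on maltose, where maltose replicate 3 was the lowest. It fell by 4.57 on the log2 scale (SE 0.32, adjusted p = 1.7e-07).

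Most genes at least 4-fold changed had no direct neighbour changed in the same direction, but such neighbours were more frequent for them than for other genes. Ends of the pieces of the assembly were inferred from a drop in start position along the gene order. By their order in the Pycco1 assembly, 182 of 663 genes at least 4-fold higher (27.5%) had a direct neighbour that was also at least 4-fold higher, against 1012 of 10460 other tested genes (9.67%). For genes at least 4-fold lower the shares were 14.5% of 311 and 4.89% of 10812 other tested genes. The longest run held 4 neighbours, 271638, 1477222, 1458725 and 270010, all of unknown function with a signal peptide. Their log2 fold changes were 9.18, 9.92, 3.03 and 5.90, and their mean levels on aspen 88.2, 164, 4.28 and 5711 CPM. Without maltose replicate 3, the log2 fold change of 1477222 became 10.83. Whether reads of neighbours that overlap were shared between them was not tested.

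Proteins that the study found in the culture medium can be set beside their transcripts. Of 58 proteins found on wood and not on maltose, 48 had transcripts that rose (82.8%, beside 26.3% of all genes tested) and 2 that fell (3.45%, beside 24.9%). Of the 13 found only on aspen, 12 had transcripts that rose (92.3%), 8 at least 4-fold (61.5%, beside 5.97%), with a median log2 fold change of 3.29. The study drew up these protein lists on the same conditions. The exception was 1369226, with 14.1, 4.61 and 8.67 CPM on aspen, against 9.57, 12.9 and 9.997 CPM on maltose (adjusted p = 0.65). Of 16 proteins found only in the medium of maltose cultures, 9 had transcripts that fell (56.2%, beside 24.9%) and 6 had transcripts that rose (37.5%, beside 26.3%). GH88 1378812 rose most, with 215, 201 and 197 CPM on aspen, against 13.9, 12.3 and 8.34 CPM on maltose (log2 fold change 4.15).

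Most tested genes, 8686 of 11130, are in none of the study's tables and carry no annotation here. Among them 1582 rose (18.2%) and 2156 fell (24.8%), beside 26.3% and 24.9% of all genes tested. Gene 1438837 had 1614, 2834 and 2352 CPM on aspen, against 1.90, 3.07 and 5.81 CPM on maltose (log2 fold change 9.30, SE 0.59, adjusted p = 8.4e-08). Gene 1466450 had 0.944, 1.70 and 0.829 CPM on aspen, against 4881, 4509 and 2967 CPM on maltose (log2 fold change -11.79, SE 1.56, adjusted p = 4.1e-05), and 1434227 had 6.29, 8.91 and 4.08 CPM on aspen, against 4569, 4962 and 3966 CPM on maltose (log2 fold change -9.45). Only 4 tested genes had counts in all aspen libraries and none in any maltose library. The annotated one of these, 1434273 of unknown function, had 16, 12 and 12 counts on aspen. Set against 3 counts over the 3 maltose libraries, its level on aspen was 12.98-fold higher. Both reads of a pair were counted, so that 3 counts are fewer than 3 read pairs and this fold is not a lower limit.

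Transcripts that changed on aspen and not on pine were defined by 3 contrasts. Aspen had to differ from maltose with a log2 fold change of at least 1 in size and from pine in the same direction, both with an adjusted p under 0.05, and pine had to lie within a log2 fold change of 1 from maltose without passing. The 3 contrasts share libraries, and a pine value that did not pass does not show that pine and maltose were alike. By this rule 175 transcripts were higher (1.57% of those tested) and 302 lower (2.71%) on aspen but not on pine. Their median log2 fold changes were 1.51 against maltose and 1.38 against pine for the higher ones, and -1.45 and -1.39 for the lower ones. Without aspen replicate 1, 176 rather than 302 were lower, and 170 of these were among the 302. With the library code prefix as a term, 107 were higher and 181 lower, of which 96 and 173 were among the 175 and the 302.

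MnP 1464049 stood first among the higher ones. It had 381, 361 and 444 CPM on aspen, 2.68, 2.53 and 4.50 CPM on pine and 1.84, 2.02 and 4.21 CPM on maltose. The pine and maltose libraries overlapped and the aspen libraries lay far above both. The log2 fold change was 6.94 for aspen minus pine (SE 0.39, adjusted p = 2.6e-07) and 0.26 for pine minus maltose (adjusted p = 0.52). Without maltose replicate 3 it no longer met the rule. LiP 1431101 and GH10 1395316 did not enter this class, since they rose on pine too, though far less. LiP 1431101 had 7.67, 11.6 and 19.9 CPM on pine and differed between aspen and pine by a log2 fold change of 7.15 (adjusted p = 5.5e-07). For GH10 1395316, with 3.63, 2.94 and 3.38 CPM on pine, that difference was 6.62 (SE 0.29, adjusted p = 5.3e-08).

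Beside this peroxidase, the class held 13 further CAZyme transcripts, 3 P450s and, of unknown function, 7 transcripts with and 68 without a signal peptide. Another 83 (47.4%) were in none of the study's tables, as were 78.0% of all genes tested. The class held 5.24% of the CAZyme transcripts tested and 4.92% of the P450s, beside 1.57% of all genes tested. For unknown function the shares were 2.36% with and 3.76% without a signal peptide. The β-glucosidase CBM1-GH3 1404940 had 73.9, 36.4 and 91.7 CPM on aspen, 16.5, 25.4 and 3.29 CPM on pine and 8.53, 7.30 and 15.6 CPM on maltose. Its log2 fold change was 2.68 against maltose (adjusted p = 0.0017) and 2.15 against pine (adjusted p = 0.012), and it no longer met the rule without pine replicate 3. AA8-CBM1 1473160, a haem domain of the cellobiose dehydrogenase type, had 8.61, 8.997 and 7.04 CPM on aspen, 3.81, 1.57 and 4.58 CPM on pine and 2.25, 3.02 and 3.63 CPM on maltose. The other CAZymes included members of families that act on fungal walls or glycoproteins (GH16, GH17, GH18-CBM5, GH30_3, GH47 and GH128). Among these, GH18-CBM5 1447824 had 646, 449.9 and 553 CPM on aspen, 213, 169 and 211 CPM on pine and 155, 228 and 155 CPM on maltose. The rest were GH5_22 1460251 and 1453322, AA3_2 1367218 and GT8 1464752.

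Among transcripts of unknown function, 1390470 had 103, 146 and 82.5 CPM on aspen, 1.84, 3.83 and 4.90 CPM on pine and 2.73, 2.88 and 2.84 CPM on maltose (aspen minus pine 4.98, SE 0.35, adjusted p = 2.8e-06). The secreted 1435353, described as endoglucanase-like and detected as a protein only on aspen, had 61.8, 75.3 and 53.7 CPM on aspen, 2.39, 4.79 and 5.22 CPM on pine and 3.23, 3.13 and 2.26 CPM on maltose (aspen minus pine 3.95, SE 0.30, adjusted p = 5.5e-06), and it no longer met the rule without pine replicate 1. P450 1362757 had 278, 129 and 136 CPM on aspen, 62.8, 25.9 and 24.4 CPM on pine and 35.8, 36.6 and 35.5 CPM on maltose, so that pine replicate 1 lay above the maltose libraries and below the aspen libraries.

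The 302 transcripts lower on aspen but not on pine included many without annotation, 251 of them (83.1%) being in none of the study's tables, as were 78.0% of all genes tested. The chitinase family member GH18 1464569 had 6.26, 7.01 and 12.5 CPM on aspen, 44.4, 54.5 and 96.3 CPM on pine and 71.7, 52.6 and 24.6 CPM on maltose (aspen minus pine -2.92, SE 0.42, adjusted p = 5.0e-04). The expansin-related EXPN 1422224 had 17.0, 10.4 and 9.41 CPM on aspen, 34.3, 46.4 and 39.3 CPM on pine and 73.0, 57.0 and 36.4 CPM on maltose (aspen minus pine -1.70, adjusted p = 0.0013), and EXPN 1439344 was lower by a similar amount (aspen minus pine -1.65, adjusted p = 0.0041). P450 1468281 had 2.92, 4.83 and 6.33 CPM on aspen, 11.6, 13.6 and 27.4 CPM on pine and 17.5, 23.6 and 22.9 CPM on maltose, and no longer met the rule without pine replicate 3. In each of these the 3 aspen libraries lay below all pine and maltose libraries. No transcript for a cellulase, xylanase, pectinase or peroxidase was in the lower class except GH131 1464770.

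**Figure D4:**
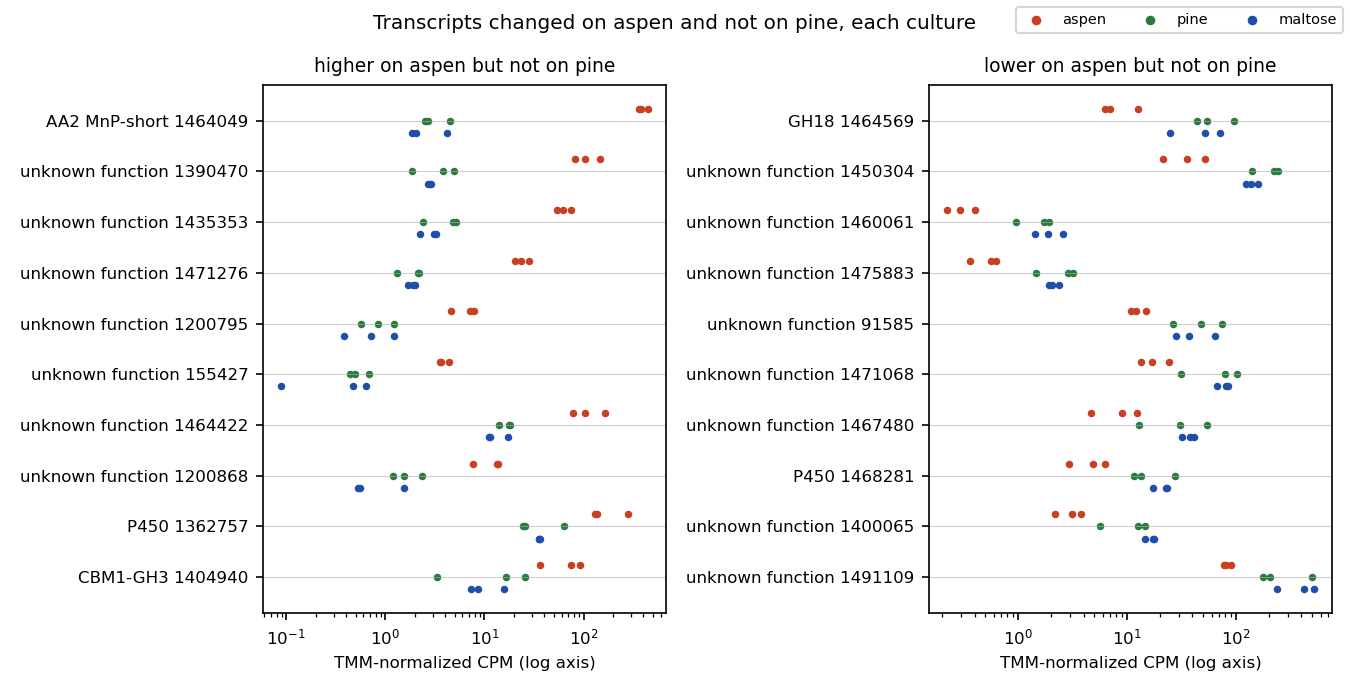
TMM-normalized CPM on a log axis in each aspen (red), pine (green) and maltose (blue) culture for 10 annotated transcripts each that were higher (left) or lower (right) on aspen but not on pine, taken by the smaller of their differences from maltose and from pine. For MnP 1464049 the 3 aspen points lie between 361 and 444 CPM, against at most 4.50 CPM on pine and 4.21 CPM on maltose.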

How the data were processed

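RNA of 9 liquid cultures was sequenced as paired reads. Per the submitters' notes, the authors aligned the reads by TopHat2 to the strain's own genome and took counts per gene by HTSeq, and the deposited raw counts are whole numbers for 12690 genes. The counts that the authors normalized with DESeq were not used, and no columns of other samples were met (0). Both reads of a pair were counted, since only 19.4% to 28.0% of counts from 1 to 49 were odd in the aspen and maltose libraries.

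Raw counts were analysed in R 4.3.3 with edgeR 4.0.16. The filter kept the 11130 genes whose raw counts averaged at least 5 across all 9 libraries. The 838 genes without a count and 722 with few counts were not tested. A quasi-likelihood model (glmQLFit, glmQLFTest, TMM) with the 3 substrates as groups was fitted to all 9 libraries, and p-values were adjusted over all genes tested by Benjamini-Hochberg and Bonferroni. SE is approximate, computed from each log2 fold change and its F statistic (absolute change over root F). The replicates are described as independent cultures. The test was tried on simulated data at this depth for aspen minus maltose (11093 genes), with 50 genes changed at each fold. It recovered 36% of 2-fold, 90% of 4-fold, 98% of 8-fold and 100% of 16-fold changes and called 9 of 10893 unchanged genes. Far fewer genes changed there than the 51.2% called in the data. The adjusted p is stricter in such a case, so these shares need not hold for the data. Families, signal peptides and secretomes are those of the study's tables, read for 2455 genes, and the assembly Pycco1, to which 12680 gene numbers matched, served for gene span and order.

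Members and the 32 gene lists were chosen with earlier results of these data known. Named by rule were up to 3 members per list with the largest changes that did not overlap between groups. The exceptions of a list were named where these were 3 or fewer. Also named were the 10 largest rises and falls and the 10 highest transcripts per group among annotated genes. To these came up to 10 annotated genes each in the 2 aspen-but-not-pine classes, by the smaller of their differences from maltose and pine. The last were 2 rises and 2 falls without annotation. The genes the study names for growth on aspen alone were not added as such, and not all of them are given here. Other genes were chosen after their values were seen. Alternatives were DESeq2 1.42.0 (size factors in edgeR, and its Wald test), no filter, 6 libraries only, a replicate block, the trim length, each library left out, for the 4-fold counts, Benjamini-Hochberg adjustment alone, another definition of no change on pine, other denominators of the CAZyme share and, chosen after seeing the data, the library code prefix.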

Additional observations from a re-analysis of the deposited data

Results flagged for a closer look

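The response to aspen and the response to pine differed by a test of the difference itself (aspen minus pine, edgeR, Benjamini-Hochberg adjusted) for the 175 transcripts higher and the 302 lower on aspen but not on pine. The contrasts share libraries, and the rule that chose these transcripts used this difference. Its log2 value was 6.94 for MnP 1464049, 2.26 for P450 1362757 and 2.15 for CBM1-GH3 1404940. For higher transcripts of unknown function it was 4.98 for 1390470, 3.95 for the endoglucanase-like 1435353, 3.66 for 1471276, 2.89 for 1200795, 2.84 for 155427, 2.80 for 1464422 and 2.79 for 1200868. For lower transcripts it was -2.92 for GH18 1464569 and -1.90 for P450 1468281. For lower transcripts of unknown function it was -2.47 for 1450304, -2.31 for 1460061, -2.26 for 1475883, -1.97 for 91585, -1.96 for 1471068, -1.91 for 1467480, -1.86 for 1400065 and -1.83 for 1491109. Of 15 alternatives, 1200868 met the rule in 9, failing under the Wald test, the replicate block, the trim length, the library code prefix and without maltose replicate 3 or pine replicate 1. The rule was met in 13 for 1400065 (failing under the replicate block and without pine replicate 3) and 1491109 (failing under the prefix and without pine replicate 1), and in 14 for 1464049 (without maltose replicate 3), 1435353 (without pine replicate 1), 1404940 and 1468281 (both without pine replicate 3) and 1467480 (prefix). In 1 alternative each, 1467480 and 1491109 lost the adjusted p of a contrast with aspen, and the others failed only on the size or pine limits of the rule. The other 12 met it in all 15. The library code prefix, which no pine library shared with aspen replicates 1 and 2, moved with this comparison, and its part was not tested beyond the counts with it as a term.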

How the results depend on the processing

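No named gene that passed in the main fit or in an alternative changed sign between them. Sign changes of genes that passed in neither were not looked for, and counts were compared by size only. With the trim length as a term, 148 rather than 311 transcripts and 8 rather than 17 CAZyme transcripts were at least 4-fold lower, and all maltose libraries had the shorter length. With Benjamini-Hochberg adjustment alone 490 were at least 4-fold lower. With the library code prefix as a term, chosen after seeing the data, 107 rather than 175 transcripts were higher and 181 rather than 302 lower on aspen but not on pine. Dividing counts by gene span gave a difference in CAZyme share of 1.54 rather than 2.36 percentage points. Leaving out 1 library at a time gave 2447 to 2790 rises, 2233 to 2565 falls, and 484 to 604 transcripts at least 4-fold higher and 221 to 259 lower. Of CAZyme transcripts, 58 to 85 were at least 4-fold higher and 12 to 16 lower, with a difference in share of 2.08 to 2.58 points. The 58 was without maltose replicate 1, and it was 61 and 62 without maltose replicates 2 and 3. On aspen but not on pine, 137 to 203 were higher and 176 to 343 lower, where 176 was without aspen replicate 1. The deviations of same-numbered aspen and maltose libraries correlated at 0.231, -0.102 and 0.258, positive for 2 numbers and negative for 1, so the numbers were not taken to pair the cultures; with the replicate block 3065 transcripts rose and 2968 fell, 697 and 364 at least 4-fold, and 91 and 18 CAZyme transcripts. Over the 145 named genes, 1862 alternative values kept their call, 14 lost it and 9 gained it. In the simulation, where far fewer genes changed than in the data, 36% of 2-fold changes were recovered.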
